A study of Mus musculus with 5 samples.

Results

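Macrophages and monocytes were examined in 4 single-cell RNA libraries of mouse colon tumors collected after chemotherapy. A barcode was kept when it held at least 500 genes and at most 15% mitochondrial counts. A kept cell was a member when C1qa, C1qb, C1qc, Csf1r, Adgre1, Mrc1 and Ms4a7 together gave at least 3 UMIs (unique molecular identifiers, which count captured RNA molecules) and more UMIs than the neutrophil genes Csf3r, Cxcr2, Retnlg, Hdc and Il1r2. By this rule 351 of 7396 kept cells were members. There were 46 in day 1 replicate 1, 129 in day 1 replicate 2, 19 in the day 3 library and 157 in the day 6 library. The members were thus chosen by the measured counts of these 12 genes, whose values are given as description only.

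Monocytes are made in the bone marrow, circulate in blood and enter inflamed tissue through the chemokine receptor Ccr2. In the colon they mature into macrophages, which lose Ccr2 and Ly6c2, gain MHC class II and C1q, and clear dying cells. MHC class II proteins present peptides from engulfed material to helper T cells and are produced under the transactivator Ciita. MHC class I proteins present peptides made inside the cell and increase with interferon signalling through factors such as Irf1.

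All 4 tumor libraries came from wild-type mice (labelled WT) whose distal colon tumors had been induced with the carcinogen azoxymethane (AOM) and the colitis agent dextran sodium sulfate (DSS), and all mice then received Irinotecan and 5-FU. The libraries were taken at post-treatment day 1 (2 libraries, called early) and at days 3 and 6 (1 library each, called late), and no untreated tumor library was used here. The drugs had been given in 3 repeated cycles, Irinotecan first and 5-FU a day later, and tissue was taken once the last cycle had been given. Whether day 1 counts from an injection of that cycle or from its end is not given in the sources used here. Another library, from untreated wild-type colon stroma, was prepared by another dissociation. The mice were of mixed C57BL/6J;129 or C57BL/6J background, and the labels give neither sex nor age. The tumor protocol kept the fragments held back by a filter and discarded the rest, so a share of kept cells is not a share of the tumor. Fewer cells of a type and less RNA per cell cannot be told apart in levels summed over cells. Day 1 replicate 1 and day 3 had single-index libraries, and day 1 replicate 2 and day 6 had dual-index libraries. Total UMIs per tumor library ran from 5132360 to 16904947. Members of different tumor libraries shared 1 barcode, and kept cells of the 5 libraries shared 163.

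The days also differed in genes of the sex chromosomes. Over all kept cells, Xist, which is transcribed from the inactive X chromosome, was at 0 and 0.119 CPM (counts per 1000000 UMIs) at day 1, 27.2 CPM at day 3 and 101 CPM at day 6. The Y-linked gene Uty was at 69.5 and 93.5 CPM at day 1 and at 2.85 and 0.498 CPM at days 3 and 6. Day after treatment, sex of the mice and the mouse itself therefore cannot be told apart in any comparison of days.

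The cell type label was checked against 20 macrophage and monocyte genes that the rule did not use, among them Lyz2 (lysozyme), Cd68, Tyrobp and Fcer1g. Against neutrophils, defined further below, 13 of these 20 genes had a fold above 0 in all members and 7 below 0. The check therefore bears on epithelial RNA and does not tell members from neutrophils. The members fell into a pair of populations. In 227 of 351 members these genes made up at least 0.4% of the cell's UMIs, and these are called identity-rich. They numbered 30, 91, 3 and 103 in the order day 1 replicate 1, day 1 replicate 2, day 3 and day 6, with median depths of 4664.5, 4959, 3607 and 4699 UMIs. The other members, 16, 38, 16 and 54 cells, had median depths of 20147.5, 17318.5, 5294.5 and 17406.5 UMIs and were rich in epithelial RNA. In them the 7 selecting genes gave 244, 287, 1116 and 229 CPM, against 7175, 3442, 12486 and 10423 CPM in the identity-rich members and 38.6, 28.96, 39.5 and 51.4 CPM in kept cells that were neither members nor neutrophils. The data thus went against the label for most of these 124 members, though the limit may not suit day 3, as described below. In 123 of them the 12 columnar epithelial genes held more UMIs than the 20 macrophage and monocyte genes, as in 20 of the 227 identity-rich members, and 92 of the 124 passed the rule with 3 or 4 UMIs. The split is not clean, since 9 of the 124 held at least 10 selecting UMIs, 3 of them at day 3, and 10 lay between 0.3% and the limit. Cells of 2 types in 1 droplet were not called by a doublet caller, and their part in this population was not tested. The 0.4% limit was chosen after the data had been seen.

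**Figure D1:**
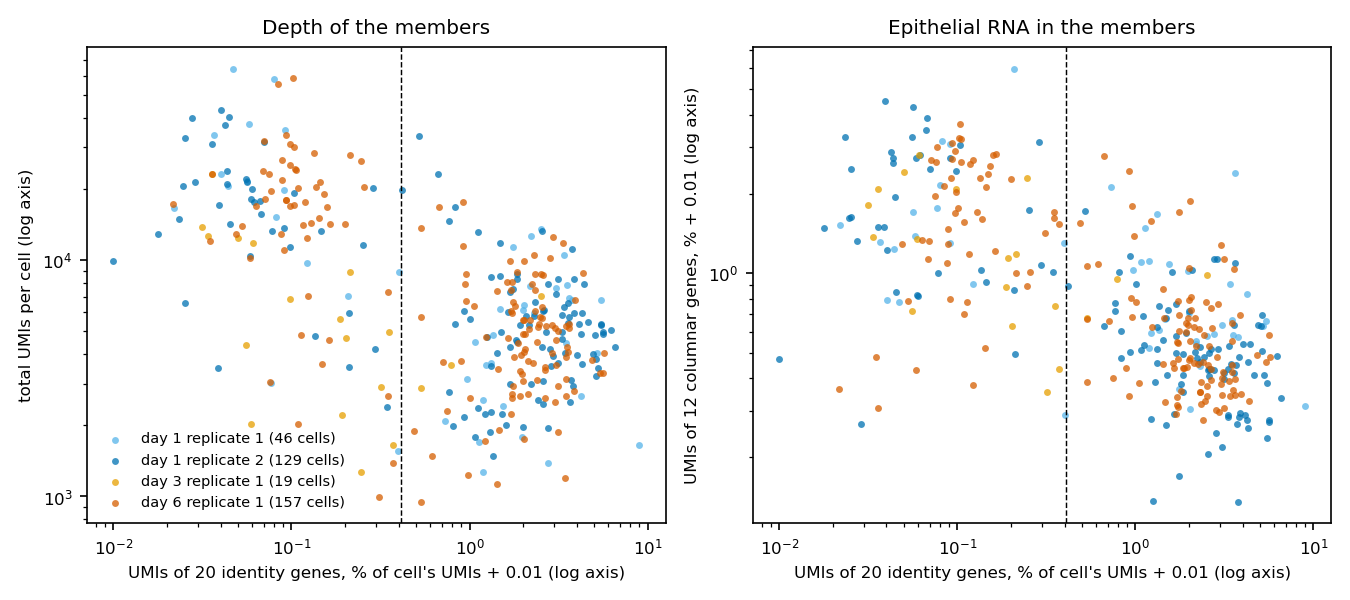
Each point is 1 member of the 4 tumor libraries, placed by the percent of its UMIs from 20 macrophage and monocyte genes outside the rule (x, log axis) against its total UMIs (left, log axis) and the percent of its UMIs from 12 columnar epithelial genes (right, log axis). The dashed line is the 0.4% limit, and of the 124 cells to its left 102 are deeper than the median of the 227 identity-rich cells to its right and 113 hold a larger share of columnar RNA than their median.

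The share of identity-rich cells followed the UMIs that carried a cell over the threshold. Of 86 members with exactly 3 selecting UMIs 20.9% were identity-rich, and of 46 members with 4 UMIs 47.8%. The share was 73.3% of 86 members with 5 to 9 UMIs, 88.5% of 52 members with 10 to 29 UMIs and 96.3% of 81 members with at least 30 UMIs. Just outside the rule, 215 cells had 2 selecting UMIs, and 9.77% of them were identity-rich. The identity-poor cells held 69.9%, 55.9%, 89.8% and 64.3% of all member UMIs in the order of the libraries above. Sums over all members therefore carried mostly RNA of these cells, and most results below are given for the identity-rich members. Only 3 cells of the day 3 library were identity-rich, so that library is left out of those results. The same limit passed 14 of the 77 day 3 neutrophils, defined further below. In day 1 replicate 1, day 1 replicate 2 and day 6 it passed 69 of 88, 399 of 482 and 35 of 48. The limit thus does not tell macrophages and monocytes from neutrophils. The neutrophils' median share of UMIs from the genes of that limit was 0.182% at day 3, against 0.967%, 0.925% and 0.947%. Whether the limit suits day 3 was not tested, so its identity-poor members are not shown to be mislabelled.

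Members made up 6.15% of kept cells in day 1 replicate 1 (95% exact Clopper-Pearson interval 4.54 to 8.12%), 5.37% in day 1 replicate 2 (4.50 to 6.35%), 1.34% at day 3 (0.808 to 2.08%) and 5.56% at day 6 (4.74 to 6.46%). The intervals cover counting error only. The day 3 share lay below the other intervals, while day 6 overlapped both day 1 libraries. The early mean was 5.76% ± 0.553 (SD, n = 2) and the late mean 3.45% ± 2.98 (SD, n = 2). The difference of -2.31 percentage points had a two-sided exact permutation p of 0.667, and the smallest p this design allows is 0.3333. Without day 3 the difference was -0.203 points. Within the single-index pair it was -4.81 points and within the dual-index pair 0.187 points. Kept cells were also grouped by the marker list that held most UMIs in them. Of those led by neither the columnar nor the squamous list, members made up 20.5%, 15.7%, 2.78% and 33.2%. Members led by an epithelial list are left out of these shares.

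MHC class II genes share a promoter design, and several comparisons below turn on them, so promoters of 3 of them are shown first. The Y box, read as GATTGG or as its complement CCAATC on the other strand, is a known element of class II promoters. Of 9 RefSeq promoters (GRCm38.p6) of 8 class II genes, 8 held this run of letters within 250 bases before the gene start, against 14.6% of 32851 promoters of all genes. H2-Ab1, Cd74 and Ciita, the other genes of the 11 in the class II list, are not in this count. Cd74 was left out by choice, for lying on another chromosome. Capitals mark the matches in the 100 bases before the start, written 5′ to 3′ on the strand of the gene. The windows are chr17:34287824-34287923 on the minus strand for H2-Aa, chr17:34305767-34305866 on the plus strand for H2-Eb1 and chr17:34153091-34153190 on the plus strand for H2-DMb1. H2-Aa and H2-Eb1 encode chains of the surface molecules, and H2-DMb1 encodes a chain of the peptide loading factor.
H2-Aa: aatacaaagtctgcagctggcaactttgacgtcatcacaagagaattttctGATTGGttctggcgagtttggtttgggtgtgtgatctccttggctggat
H2-Eb1: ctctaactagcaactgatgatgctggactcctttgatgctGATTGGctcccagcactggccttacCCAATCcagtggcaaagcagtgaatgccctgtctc
H2-DMb1: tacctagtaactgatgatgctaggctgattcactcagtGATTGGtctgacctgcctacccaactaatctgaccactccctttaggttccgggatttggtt
A match is a description of the letters and does not show that a factor was bound.

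In the identity-rich members the genes of the rule had the following levels. C1qa, a chain of the complement starter C1q, was at 1923 and 728 CPM at day 1 and 2599 CPM at day 6. Csf1r, the receptor for the macrophage growth factor, was at 1227 and 930.1 CPM at day 1 and 1475 CPM at day 6. Adgre1, which encodes the antigen F4/80, was at 154 and 101 CPM at day 1 and 277 CPM at day 6. For C1qa, Csf1r and Adgre1 the day 6 level lay above both day 1 levels. Ms4a7, a membrane gene of mature macrophages, was at 296 and 90.3 CPM at day 1 and 618 CPM at day 6, and Mrc1, the mannose receptor, at 444 and 350.0 CPM at day 1 and 348 CPM at day 6. Of the 7 selecting genes, 6 were above both day 1 libraries at day 6, and Mrc1 lay just below both. Lyz2, which defined the identity-rich cells together with 19 other genes, was at 12845 and 12578 CPM at day 1 and 8059 CPM at day 6, against 370.1, 214 and 96.1 CPM in other kept cells.

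Day 6 was compared with day 1 in the identity-rich members with edgeR's quasi-likelihood test on summed counts (1 library against 2, so the day 6 library is assumed to vary like those of day 1). Of 8599 genes tested, 193 (2.24%) passed an adjusted p of 0.05, 125 (1.45%) higher and 68 (0.791%) lower at day 6. The median log2 fold over all tested genes was -0.03. Of the 193 genes, 119 also passed in the same direction in the kept cells that were neither members nor neutrophils, where 1100 of 16080 genes (6.84%) passed, 666 (4.14%) higher and 434 (2.70%) lower. The level in those other cells is therefore given beside many of the member values. The genes that rose included 4 of 15 MHC class I, 6 of 26 interferon-response and 5 of 17 chemokine genes tested, and those that fell included Il10, Mmp9 and Sparc.

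Different clusters of members, described further below, made up the cells compared. Of the identity-rich members at day 1, 78 lay in the monocyte-like cluster 1 and 27 in the macrophage-like cluster 2, while at day 6 none lay in cluster 1, 48 lay in cluster 2 and 47 in cluster 4, which held cells of day 6 only. Cluster 4 held 47 of the 103 identity-rich members of day 6. It held 80.6% of their 1102 Il1rn UMIs, 92.0% of the 163 Ccl24 UMIs, 84.0% of the 119 Timp1 UMIs and 89.3% of the 75 Acod1 UMIs. These genes were among those leading the cluster, so their high shares followed from that choice. Its share ran from 33.3% (Gbp3) to 87.8% (Cxcl10) over the called interferon-response genes. Over the called MHC class I genes it ran from 30.4% (H2-Q7) to 48.6% (Tap1). Cluster 4 held 0.813% of the 123 Ccl8 UMIs and 10.5% of the 1425 C1qa UMIs. Of the monocyte genes described below, it held 62.0% of the 92 Ccr2 UMIs, 82.1% of the 112 Chil3 UMIs and 95.4% of the 130 Ly6c2 UMIs. Monocyte genes were thus present at day 6 outside cluster 1. The clustering had no correction for library, and clusters 1 and 4 nearly followed the days. Whether they differ by cell type or by library was not tested, so cluster 1 does not show a loss of monocytes at day 6. A change of level within a cell type and a change in the mix of cells cannot be told apart in these sums. The list calls also depended on leaving out day 3 and its 3 cells. With all 4 libraries 1 of 12 MHC class I and 1 of 16 interferon-response genes tested passed, and by edgeR 0 of 14 chemokine genes (4 with an unadjusted p under 0.05, list median -0.10) and 0 of 20 cytokine and feedback genes (1 with an unadjusted p under 0.05, list median 0.15).

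**Figure D2:**
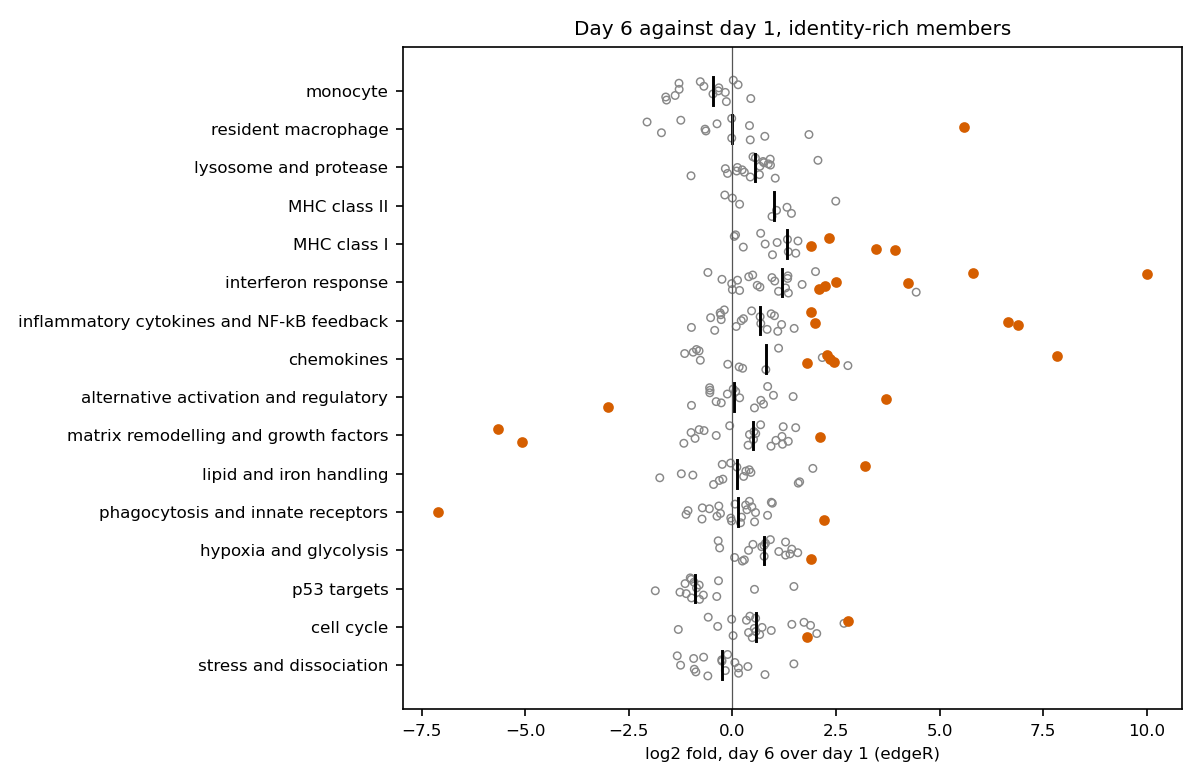
Each point is 1 gene of a list, placed by its log2 fold at day 6 over day 1 in the identity-rich members (edgeR), with vertical scatter for legibility only. Filled points passed an adjusted p of 0.05, bars are list medians, and the MHC class I list has all 15 tested genes above 0 and a median of 1.33.

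Of 15 MHC class I genes tested, 4 rose, none fell, and all 15 had a fold above 0 (median log2 fold 1.33). Psmb9, a subunit of the immunoproteasome that cuts the peptides, was at 49.3 and 35.0 CPM at day 1 and 184 CPM at day 6 (log2 fold 2.34 ± 0.54, adjusted p = 0.00129). Tap1, a subunit of the transporter that carries them, was at 92.5 and 64.5 CPM at day 1 and 255 CPM at day 6 (log2 fold 1.89 ± 0.49, adjusted p = 0.00858). The day 6 value lay above both day 1 values for each. H2-Q7 and H2-Q4, class I heavy chains of the Q region whose reads could be shared with near-identical neighbours, also rose (log2 fold 3.45 ± 0.58, adjusted p = 7.36e-07 and log2 fold 3.93 ± 0.95, adjusted p = 0.00266). The classical heavy chain H2-K1 was at 1572 and 858 CPM at day 1 and 3229.8 CPM at day 6 and missed the threshold (log2 fold 1.53 ± 0.56, adjusted p = 0.188). Other kept cells held H2-K1 at 729, 375 and 3041 CPM and Psmb9 at 14.1, 8.43 and 144 CPM, and in them 11 of 16 class I genes rose.

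Of 26 interferon-response genes tested, 6 rose and none fell, with a list median of 1.20. In other kept cells the list median was 2.57. In the comparison of both differences described below the list median was -1.05, so the list rose less in the members than in other kept cells. Gbp2, a guanylate-binding protein, was at 37.0 and 57.1 CPM at day 1 and 849.9 CPM at day 6 (log2 fold 4.24 ± 0.54, adjusted p = 3.94e-12). Its level in other kept cells went from 9.06 and 6.09 CPM to 548 CPM. Gbp3 rose as well (log2 fold 2.51 ± 0.59, adjusted p = 0.00189). Irf1, a transcription factor of the interferon response, was at 43.1 and 84.7 CPM at day 1 and 266 CPM at day 6 (log2 fold 2.10 ± 0.49, adjusted p = 0.00168). The members' day 6 level of Irf1 lay above that of other kept cells, which was 196 CPM. Cxcl9, a chemokine that attracts T cells, had no UMI in the identity-rich members of day 1, which allows up to 18.5 and 5.53 CPM, and was at 286 CPM at day 6, where 15 of 103 cells held a UMI (adjusted p = 5.27e-19). In other kept cells Cxcl9 stayed at or under 7.34 CPM. Cxcl10, a related chemokine, was at 6.16 and 0 CPM at day 1 and 89.4 CPM at day 6 (adjusted p = 7.36e-07).

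No MHC class II gene passed the threshold by edgeR among 8 tested, 3 had an unadjusted p under 0.05, 6 had a fold above 0 and the list median was 1.01. H2-Aa was at 8746 and 3402 CPM at day 1 and 10944 CPM at day 6 (log2 fold 0.96 ± 0.61, adjusted p = 0.788). H2-Ab1, the partner chain, was at 5350.1 and 2945 CPM at day 1 and 10291 CPM at day 6 (log2 fold 1.43 ± 0.60, adjusted p = 0.326). For both, day 6 lay above both day 1 libraries, but the day 1 libraries also differed from each other. Cd74, the invariant chain that guards the groove, was at 9887 and 2074 CPM at day 1 and 5592 CPM at day 6, between the day 1 values, and did not pass. In other kept cells H2-Aa was at 113, 67.0 and 1261 CPM and 9 of 11 class II genes rose. After each cell was thinned to 1000 UMIs, 80.0%, 70.3% and 88.2% of identity-rich members held H2-Aa, against 90.0%, 80.2% and 98.1% without thinning. In columnar epithelial cells the thinned shares were 11.2%, 3.71% and 72.2%.

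Monocyte genes had a list median of -0.47, and 0 of 15 tested passed the threshold by edgeR, 4 with an unadjusted p under 0.05. Ccr2 was at 524 and 582 CPM at day 1 and 168 CPM at day 6 (log2 fold -1.59 ± 0.57, adjusted p = 0.162). Chil3, a secreted chitinase-like protein of recently arrived monocytes, was at 567 and 599 CPM at day 1 and 204 CPM at day 6 (log2 fold -1.38 ± 0.57, adjusted p = 0.304). Ly6c2 was at 271 and 302 CPM at day 1 and 237 CPM at day 6 (log2 fold -0.14 ± 0.51, adjusted p = 0.995). All 3 were lower at day 6 than in either day 1 library, by margins that did not pass the test. Of 16 monocyte genes in the files, 11 were below both day 1 values. The share of identity-rich members with a Ccr2 UMI at 1000 UMIs a cell was 33.3% (exact Clopper-Pearson interval 17.3 to 52.8%, 30 cells) and 35.2% (25.4 to 45.9%, 91 cells) at day 1 and 12.7% (6.96 to 20.8%, 102 cells, 1 shallower cell left out) at day 6. Without thinning it was 70.0%, 60.4% and 34.0%. Columnar cells, which should lack Ccr2, held it in 0%, 0.405% and 0.914% after thinning, with median depths of 2925, 4469 and 2319 UMIs against 4664.5, 4959 and 4703.5 UMIs in the identity-rich members.

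**Figure D3:**
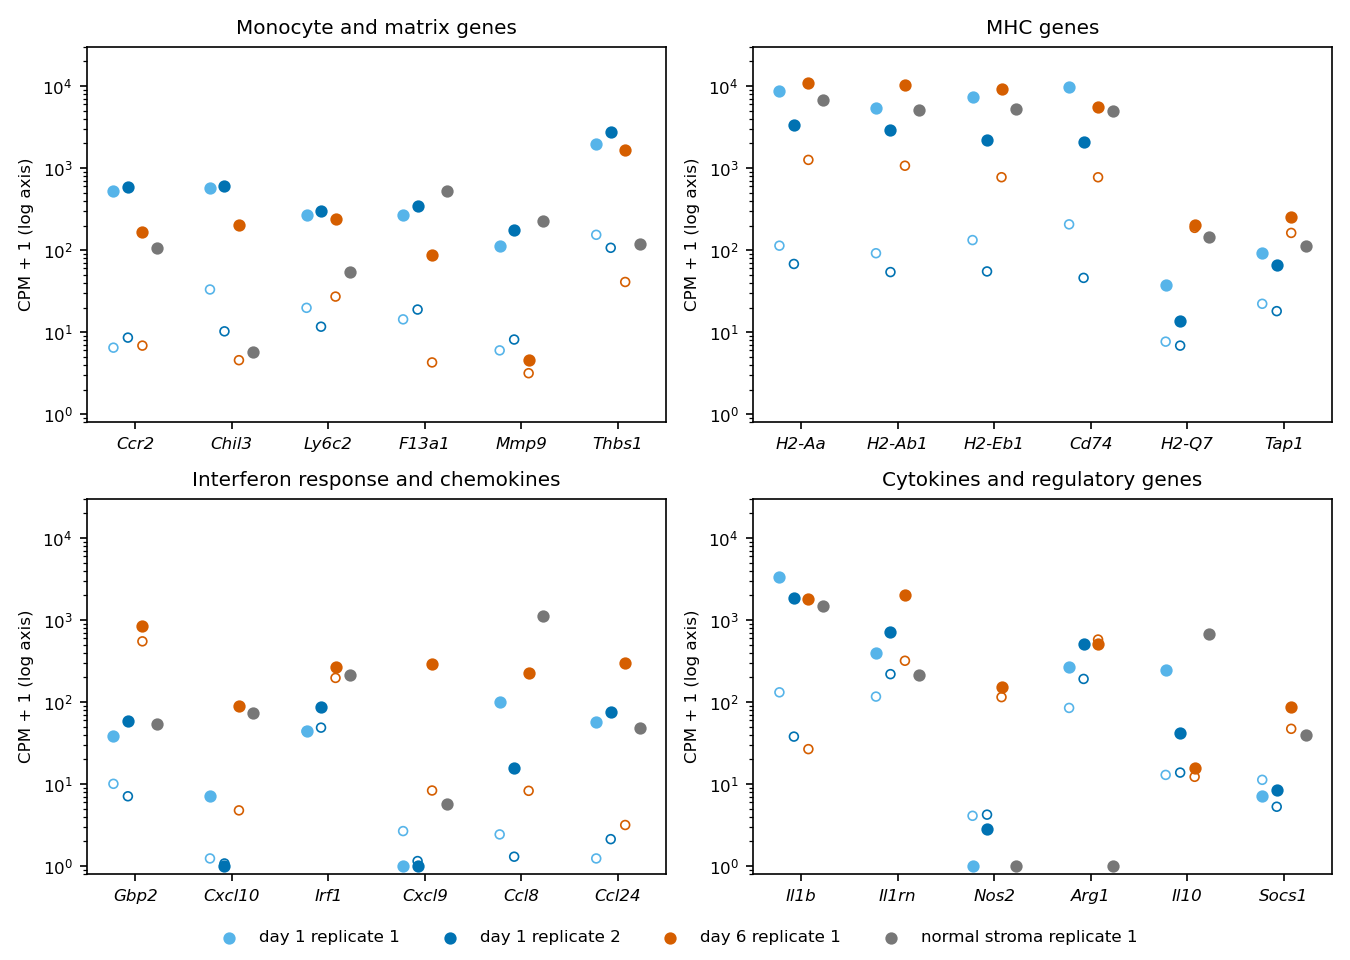
Level (CPM + 1, log axis) of 24 named genes in the identity-rich members (filled points) and in kept cells that were neither members nor neutrophils (open points), for each day 1 library, the day 6 library and, for the members only, the normal stroma library. Cxcl9 had no UMI in the members of either day 1 library and was at 286 CPM at day 6.

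Among inflammatory cytokines and their feedback genes, 4 of 23 tested rose and none fell. Il1rn, the receptor antagonist that blocks interleukin-1, was at 394 and 715 CPM at day 1 and 2009.7 CPM at day 6 (log2 fold 1.99 ± 0.54, adjusted p = 0.0148), and other kept cells held 115, 218 and 317 CPM. Il1b, the cytokine it opposes, was at 3384 and 1866 CPM at day 1 and 1802 CPM at day 6 and missed the threshold (log2 fold -0.43 ± 0.60, adjusted p = 0.985). The Il1b level of day 6 lay below both day 1 levels. Acod1, which makes itaconate, was at 0 and 62.6 CPM at day 1 and 137 CPM at day 6 (log2 fold 1.90 ± 0.54, adjusted p = 0.0237). Nos2, the inducible nitric oxide synthase, was at 0 and 1.84 CPM at day 1 and 153 CPM at day 6 (adjusted p = 1.17e-11), while other kept cells went from 3.10 and 3.23 CPM to 114 CPM. Il12b rested on 2 cells of day 6 and is not described further. Tnf was at 24.7 and 73.7 CPM at day 1 and 89.4 CPM at day 6 and did not pass the test (log2 fold 0.84 ± 0.55, adjusted p = 0.813).

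Of 17 chemokine genes tested, 5 rose and none fell. Ccl24, which attracts eosinophils, was at 55.5 and 75.5 CPM at day 1 and 297 CPM at day 6 (log2 fold 2.27 ± 0.49, adjusted p = 4.10e-04). Ccl8 was at 98.6 and 14.7 CPM at day 1 and 224 CPM at day 6 (log2 fold 2.45 ± 0.53, adjusted p = 4.77e-04). Ccl24 and Ccl8 reached at most 2.17 and 7.27 CPM in other kept cells. Ccl12 and Ccl7, ligands of Ccr2, rose too (log2 fold 2.35 ± 0.70, adjusted p = 0.0385 and log2 fold 1.81 ± 0.50, adjusted p = 0.0187), and Ccl7 was at 5.25, 9.18 and 64.3 CPM in other kept cells. Ccl22, a ligand of the chemokine receptor Ccr4, had no UMI in the day 1 members and was at 63.8 CPM at day 6, in 10 cells (adjusted p = 1.53e-05). Ccl2, the best known Ccr2 ligand, was at 18.5 and 116 CPM at day 1 and 122 CPM at day 6 and did not pass (log2 fold 0.81 ± 0.52, adjusted p = 0.788). The neutrophil attractant Cxcl2 was at 2102 and 2166 CPM at day 1 and 1012 CPM at day 6.

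Regulatory and matrix genes moved in both directions. Il10, the main anti-inflammatory cytokine of gut macrophages, was at 247 and 40.5 CPM at day 1 and 14.6 CPM at day 6, 9.84-fold lower than the day 1 mean (adjusted p = 0.00114), below both day 1 libraries. Other kept cells held Il10 at 11.9, 12.8 and 11.2 CPM. Socs1, a feedback inhibitor of interferon signalling, was at 6.16 and 7.37 CPM at day 1 and 85.7 CPM at day 6 (log2 fold 3.70 ± 0.77, adjusted p = 1.79e-04). Of 18 genes of the alternative activation list tested these were the 2 that passed, and Arg1 (arginase) was at 265 and 507 CPM at day 1 and 512 CPM at day 6 (log2 fold 0.53 ± 0.52, adjusted p = 0.956). Of 23 matrix and growth factor genes tested, 1 rose and 2 fell. Mmp9, a gelatinase, was at 111 and 173 CPM at day 1 and 3.65 CPM at day 6 (log2 fold -5.08 ± 0.83, adjusted p = 3.32e-07). Sparc, a matrix glycoprotein mostly made by stromal cells, was at 117 and 114 CPM at day 1 and 1.82 CPM at day 6 (log2 fold -5.64 ± 0.95, adjusted p = 7.77e-07), and other kept cells held 398, 262 and 79.7 CPM. Timp1, an inhibitor of metalloproteinases, was at 80.1 and 40.5 CPM at day 1 and 217 CPM at day 6 (log2 fold 2.11 ± 0.51, adjusted p = 0.00328), with 21.5, 17.8 and 12.4 CPM in other kept cells.

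Of 24 phagocytosis and innate receptor genes tested, Fcgr4, an activating receptor for IgG, rose and Marco, a scavenger receptor, fell. Fcgr4 was at 111 and 111 CPM at day 1 and 469 CPM at day 6 (log2 fold 2.22 ± 0.49, adjusted p = 6.60e-04), and at most 2.73 CPM in other kept cells. The fall of Marco rested on 1 cell of day 1 replicate 2. The clearance receptors Mertk and Axl, which bind dying cells, did not pass: Mertk was at 240.4 and 134 CPM at day 1 and 120.4 CPM at day 6 and Axl at 333 and 88.4 CPM at day 1 and 209.7 CPM at day 6. In the lipid list 1 of 17 tested genes rose, the phospholipid transfer protein Pltp, at 12.3 and 5.53 CPM at day 1 and 63.8 CPM at day 6 (log2 fold 3.21 ± 0.85, adjusted p = 0.01). Apoe, an abundant lipid carrier of mature macrophages, was at 6312 and 2735 CPM at day 1 and 3060.2 CPM at day 6 (log2 fold -0.45 ± 0.62, adjusted p = 0.981). None of 19 lysosomal genes passed by edgeR and 2 had an unadjusted p under 0.05, with 16 folds above 0 and a list median of 0.56. Cathepsin B (Ctsb) was at 1818 and 1219 CPM at day 1 and 1884 CPM at day 6.

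Lists of cell cycle, p53 target, drug handling and glycolysis genes were examined in the same cells. Without an untreated tumor library, they cannot show an effect of the drugs. The cell cycle list had a median log2 fold of 0.56 in the identity-rich members and 0.81 in other kept cells. Its median was -0.07 when the members' difference was set against that of other kept cells, as described below. None of 16 tested p53 target genes passed by edgeR and 3 had an unadjusted p under 0.05. Of the 16, 14 had a fold below 0 and the median was -0.90, beside -0.95 over the 20 tested in other kept cells. Cdkn1a, the p53-induced cell cycle inhibitor, was at 1603 and 1468 CPM at day 1 and 812 CPM at day 6 (log2 fold -0.79 ± 0.59, adjusted p = 0.884), and Bax, a death effector, at 216 and 186 CPM at day 1 and 83.9 CPM at day 6 (log2 fold -1.11 ± 0.52, adjusted p = 0.461). Of 22 cell cycle genes tested, Ube2c and Top2a rose (log2 fold 2.78 ± 0.66, adjusted p = 0.00222 and log2 fold 1.80 ± 0.55, adjusted p = 0.0473), and Top2a was at 43.1 and 42.4 CPM at day 1 and 135 CPM at day 6. Upp1, which cleaves uridine and acts on fluoropyrimidines, was at 0 and 14.7 CPM at day 1 and 98.5 CPM at day 6 (log2 fold 3.34 ± 0.69, adjusted p = 1.72e-04) and at 31.0, 20.8 and 212 CPM in other kept cells. Hk2, a hexokinase, was the 1 gene of 19 tested in the hypoxia and glycolysis list to rise (log2 fold 1.91 ± 0.49, adjusted p = 0.00623), at 105 and 153 CPM at day 1 and 450.5 CPM at day 6 and 114, 156 and 449.7 CPM in other kept cells.

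RNA of other cell types moved in the same comparison. Of 9 squamous epithelial genes tested, Krt5, Krt14, Krt15 and Krt17 rose in the identity-rich members, and all 9 had a fold above 0. Their list summed to 1239, 967 and 3808 CPM in day 1 replicate 1, day 1 replicate 2 and day 6, and to 3785, 4569 and 11194 CPM in other kept cells. Igha and Jchain, which plasma cells express, rose as well, with the B and plasma cell list at 3649, 1236 and 7769 CPM in the members and 9127, 5231 and 22128 CPM in other kept cells. Ltf and Cbr2 rose in the members (log2 fold 5.21 ± 0.59, adjusted p = 3.17e-15 and log2 fold 5.60 ± 0.67, adjusted p = 6.89e-14), and Ltf was at 34.3, 46.3 and 1623 CPM in other kept cells. Of 12 columnar genes tested, Krt20 and Car1 rose in the members (log2 fold 2.62 ± 0.50, adjusted p = 1.98e-05 and log2 fold 2.33 ± 0.50, adjusted p = 3.75e-04), as they did in other kept cells, while the columnar list summed to 7458, 5689.5 and 6852 CPM in the members. The T and NK cell list was at 30.8, 53.4 and 117 CPM. The part of free RNA in the results above was not tested for single genes. Genes called with a UMI in fewer than 10 identity-rich cells numbered 9 of the 193.

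The day 6 against day 1 difference of the identity-rich members was then set against the same difference in other kept cells of the same libraries, in 1 fit with a term for each library. Downward here means that the members rose less, or fell more, than other cells, and upward means the reverse. The MHC class II list, for example, had a median log2 fold of 1.01 in the members and 3.69 in other kept cells. Of 13751 genes tested, 165 (1.20%) differed, 50 (0.364%) upward and 115 (0.836%) downward in the members. In the MHC class II list 7 of 9 tested genes passed downward (list median -2.74 against -0.14 over all genes tested). The difference was -3.02 ± 0.33 for H2-Aa (adjusted p = 2.64e-16) and -3.66 ± 0.46 for Ciita (adjusted p = 2.28e-12). Ciita was at 327 and 157 CPM at day 1 and 189.7 CPM at day 6 in the members and at 3.58, 4.06 and 40.1 CPM in other kept cells, where it rose (log2 fold 3.69 ± 0.42, adjusted p = 1.81e-04). MHC class I genes passed downward in 6 of 16 tested, among them B2m (log2 fold -2.24 ± 0.32, adjusted p = 4.72e-09). Spp1 (osteopontin), Mmp14, Timp1 and Fn1 (fibronectin) passed upward. Spp1 was at 49.3 and 280.0 CPM at day 1 and 305 CPM at day 6 in the members and at 35.5, 35.1 and 2.38 CPM in other kept cells (log2 fold 4.49 ± 0.46, adjusted p = 7.19e-19). Mmp14 was at 129 and 127 CPM at day 1 and 166 CPM at day 6 in the members and fell from 115 and 107 to 23.97 CPM in other kept cells (log2 fold 2.40 ± 0.42, adjusted p = 5.57e-06). Ccr2 passed downward (log2 fold -1.71 ± 0.42, adjusted p = 0.00772), with other kept cells at 5.48, 7.60 and 5.87 CPM, and Il10 too (log2 fold -2.79 ± 0.73, adjusted p = 0.0167). Members and other cells of a library can share free RNA, whose part was not tested.

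Over all 351 members, with the 2 late libraries against the 2 early ones, 13 of 9447 tested genes (0.138%) passed, 6 higher (0.0635%) and 7 lower (0.0741%), and 636 genes had an unadjusted p under 0.05. Higher in the late libraries were Ltf, Cbr2, Calml3, Krt5, Xist and Ubd. Krt5 was at 104, 56.9, 1108 and 941 CPM in the same order of libraries (log2 fold 3.90 ± 0.57, adjusted p = 0.0431), against 515, 545, 1123 and 2394 CPM in other kept cells. Lower were the hemoglobin genes Hbb-bs, Hba-a1 and Hba-a2, the epithelial genes Cadps and Notum, and the Y-linked genes Uty and Eif2s3y. Hba-a1 was at 672, 560.1, 0 and 13.02 CPM in the members and at 2006, 4105, 224 and 156 CPM in other kept cells (log2 fold -5.67 ± 0.72, adjusted p = 0.0363). Apart from Cbr2, listed with resident macrophage genes, none of the 13 belonged to a macrophage function list, and Cbr2 was at 46.5, 15.1, 293 and 759.5 CPM in other kept cells. Leaving out day 3 raised the count to 580, day 6 to 313, day 1 replicate 1 to 44 and day 1 replicate 2 to 33. In the identity-rich members of all 4 libraries 53 of 6175 genes (0.858%) passed.

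Members were compared with 695 neutrophils of the same libraries (88, 482, 77 and 48 cells), which had at least 3 UMIs of the 5 neutrophil genes and more of them than of the 7 selecting genes. Cells were placed in these groups by genes measured in the same cells, and each library entered as a pair of sums. Of 8709 genes tested, 432 (4.96%) passed an adjusted p of 0.05 and a 2-fold difference, 170 (1.95%) higher and 262 (3.01%) lower in the members. Restricting both groups to identity-rich cells without day 3 gave 804 of 7159 (11.2%), 397 (5.55%) higher and 407 (5.69%) lower. Without day 1 replicate 1 the count over all members was 285 and without day 1 replicate 2 it was 172. Apoe, Pf4 and MHC class II genes were among those higher in members, and the calprotectin genes S100a8 and S100a9 and the cytokine Il1b among those lower.

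**Figure D4:**
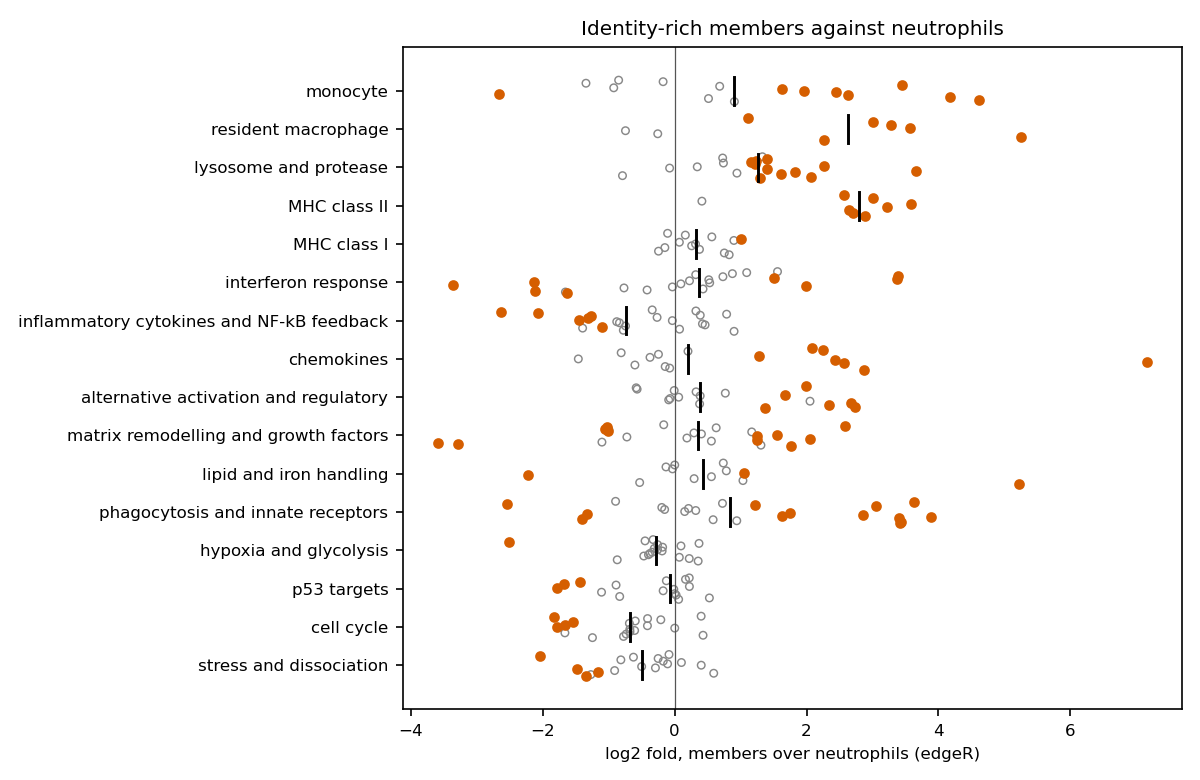
Each point is 1 gene of a list, placed by its log2 fold in identity-rich members over identity-rich neutrophils of day 1 and day 6 (edgeR, paired by library), with vertical scatter for legibility only. Filled points passed an adjusted p of 0.05 and a 2-fold difference, bars are list medians, and 7 of 8 MHC class II genes passed higher in the members.

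The genes furthest above neutrophils included Pf4, a chemokine stored in platelets and some macrophages, at 226, 264, 166 and 145 CPM in members and 2.55, 18.6, 9.47 and 13.3 CPM in neutrophils (log2 fold 4.12 ± 0.31, adjusted p = 2.56e-05). Apoe was at 2024, 1256, 1115 and 1114 CPM in members and 79.1, 68.5, 82.8 and 88.9 CPM in neutrophils (log2 fold 4.09 ± 0.21, adjusted p = 1.54e-06). In each library the member value was the higher one. Ccr2 differed by 3.46 ± 0.53 (adjusted p = 0.00326) and the inhibitory IgG receptor Fcgr2b by 3.12 ± 0.37 (adjusted p = 6.28e-04). Ms4a6c, Ms4a6d, Ly86, H2-DMb1 and H2-Aa were also among the 10 largest, between 3.03 and 3.98 on the log2 scale. MHC class II genes were higher in members for 7 of 8 tested, with a list median of 2.73 against 0.02 over all genes. H2-Aa was at 181, 236, 66.3 and 2204 CPM in neutrophils and at 2764, 1575, 1635 and 4880.1 CPM in members.

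Of 16 neutrophil genes outside the rule, 15 were lower in members. S100a9, a chain of calprotectin, was at 40.8, 33.3, 30.1 and 3.26 CPM in members and 3767, 2480.1, 1155 and 2039 CPM in neutrophils (log2 fold -6.87 ± 0.48, adjusted p = 1.53e-05). G0s2, a lipase inhibitor, differed by -7.37 ± 0.30 (adjusted p = 9.80e-07) and Arg2, the mitochondrial arginase, by -4.42 ± 0.26 (adjusted p = 4.76e-06). S100a8, Wfdc21, Slc2a3, Psca, Rdh12, Cnfn and Fam65b were the other genes of the 10 largest. Psca and Cnfn no longer passed between identity-rich cells. Among 21 inflammatory cytokine and feedback genes 8 were lower in members and none higher. Il1b was at 1026, 832, 52.8 and 661 CPM in members and 2463, 1549, 509 and 1519.6 CPM in neutrophils (log2 fold -1.44 ± 0.26, adjusted p = 0.00829), and Acod1 differed by -2.78 ± 0.44 (adjusted p = 0.00377). Chemokines split, with 5 of 14 higher and 2 lower, and Ccl8 was higher (log2 fold 3.49 ± 0.59, adjusted p = 0.00557). Columnar genes Krt20 and Car1 were higher in members, but 0 of 12 columnar genes passed between identity-rich cells without day 3 by edgeR with the 2-fold limit, 9 with an unadjusted p under 0.05 and all 12 with a fold below 0.

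Clustering of the 351 members gave 7 clusters, described without a test because the same genes formed them. Cluster 1 (80 cells, 79 identity-rich) was led by F13a1, Cxcl2, Chil3, Thbs1, Plcb1, Cxcl3, Cd80, Ccr2, Ccl9 and Hba-a1 and was monocyte-like, with Ccr2 at 753 CPM and C1qa at 157 CPM. It held 16, 63, 1 and 0 cells of day 1 replicate 1, day 1 replicate 2, day 3 and day 6. Cluster 1 may therefore follow its libraries, which was not tested. Its leading gene Hba-a1 was at 2006 and 4105 CPM at day 1 and 156 CPM at day 6 in other kept cells. Cluster 2 (79 cells, 75 identity-rich) was led by C1qa, C1qc, Ms4a7, Dnase1l3, H2-M2, C1qb, Apoe, Ccl8, Pf4 and Ptgs1. It is called macrophage-like, with Ccr2 at 226 CPM and C1qa at 3949 CPM. C1qa, C1qc, Ms4a7 and C1qb belong to the rule, so their levels are description only and do not support the name. Outside the rule, Apoe was at 6514 CPM in cluster 2 and 474 CPM in the other members, and Pf4 at 974 and 77.3 CPM. Cluster 2 held 9, 19, 0 and 51 cells. Cluster 4 (47 cells, all identity-rich and all from day 6) was led by Ccl24, Inhba, Pyy, Il1a, Timp1, Ccrl2, Acod1, Il1rn, Dusp2 and Tnfaip2. In it Lyz2 was at 8959 CPM, Il1rn at 4425 CPM and Cxcl9 at 424 CPM. Ccr2 was at 284 CPM, Chil3 at 458 CPM, Ly6c2 at 618 CPM and C1qa at 747 CPM. The cluster is left unnamed, since a cluster of 1 library may be that library, and Pyy is an enteroendocrine hormone. Of the UMIs of day 6 identity-rich members, cluster 4 also held 97.2% of 141 for Ppy, 95.9% of 170 for Gcg and 96.8% of 190 for Insl5.

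The remaining 4 clusters were mostly identity-poor and stayed unnamed. Cluster 3 (69 cells, 18 identity-rich) was led by Reg3b, Ube2c and Krt5 and held 14 of the 19 day 3 members. Cluster 5 (30 cells, 3 identity-rich, 28 from day 6) was led by Ifit1bl1, Clca4b and Saa1. Cluster 6 (27 cells, 0 identity-rich) was led by genes that included Sprr2h and F3, and cluster 7 (19 cells, 5 identity-rich) by Cadps, Mdga2 and Spock2. In clusters 5 and 6 the columnar keratin Krt8 was at 7728 and 8401 CPM and Lyz2 at 315 and 98.2 CPM. In clusters 1 and 2 Krt8 was at 1101 and 944 CPM and Lyz2 at 17549 and 8059 CPM.

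**Figure D5:**
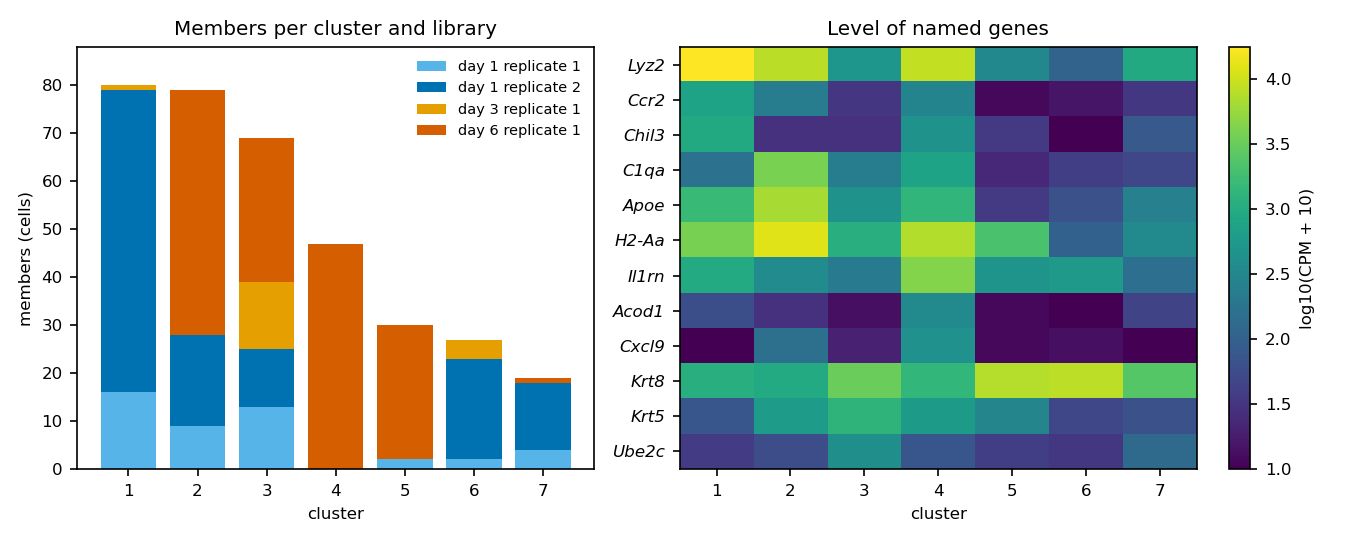
Left, members per cluster (bars from 0), coloured by library. Right, level of 12 named genes in each cluster as log10(CPM + 10), with Lyz2 highest in clusters 1, 2 and 4 and Krt8 highest in clusters 5 and 6, while cluster 4 holds 47 cells of day 6 only.

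The macrophage-like cluster 2 had cells in 3 of the libraries, so its levels are given by library in the order day 1 replicate 1, day 1 replicate 2 and day 6. H2-Ab1 was at 6269.7, 6209.6 and 13620.2 CPM and Fcgr4 at 205, 214 and 520.2 CPM. Gbp2 was at 31.5, 85.7 and 333 CPM and Cxcl9 at 0, 0 and 238 CPM. The day 6 value was the highest of the 3 for these 4 genes. Ccr2 was at 536, 343 and 112 CPM and Mmp9 at 284, 617 and 6.80 CPM. Apoe was at 12791, 7597 and 4729 CPM and Hmox1, which breaks down heme, at 788, 514 and 252 CPM. For these 4 the day 6 value was the lowest. Il1rn was at 31.5, 343 and 442 CPM and Il1b at 252, 197 and 258 CPM, with day 1 replicate 2 close to day 6 for Il1rn. The cluster held 9 and 19 cells at day 1, which limits these levels.

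In the normal stroma library the same rule gave 65 members, 53 of them identity-rich. With 1 library of another dissociation there is no test. Its identity-rich members held C1qa at 4015 CPM, Ccl8 at 1119.9 CPM, Il10 at 665 CPM, Folr2, a receptor of resident macrophages, at 421 CPM, and Arg1 and Nos2 without a UMI.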

How the data were processed

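Colon tumors of mice treated with 5-FU and Irinotecan (4 libraries) and untreated colon stroma (1 library) were profiled by inDrop single-cell RNA-seq. The authors aligned reads to GRCm38 and counted UMIs with dropEst, and deposited whole-number counts per barcode and gene without normalization. Low-quality cells were removed with the limits the study states (under 500 genes or over 15% mitochondrial counts). No batch correction was applied. Members, gene lists and named genes were chosen with earlier results of these data known, and the identity-rich groups and their comparisons were added after the data had been seen.

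Counts were summed per library and cell group, filtered with filterByExpr, normalized by TMM and tested with edgeR 4.0.16 (quasi-likelihood, Benjamini-Hochberg adjustment, R 4.3.3). DESeq2 1.42.0 was an alternative. Every adjusted p in the text comes from the edgeR test over all genes tested. Where each group held 2 libraries or more, the p-values describe the spread between libraries, which the study calls biological replicates. Where a group held 1 library, as day 6 did against day 1, its own spread was not measured. The spread of the other group was assumed for it. The p-values of day 6 against day 1 therefore do not describe a spread between replicates of day 6. CPM is UMIs of a gene per 1000000 UMIs of the summed cells, and SE is the standard error of the log2 fold. UMI counts of a 3′ method were not scaled by gene length. Beyond the lists, genes were named by p among called genes (late against early) or by size among called genes at 100 CPM or more with 1 direction in 4 libraries (against neutrophils). Clusters used scanpy 1.11.5 on the 2000 most variable genes. Shares of cells with a UMI were computed after thinning each cell to 1000 UMIs. On simulated data with a log2 change of 2, edgeR called 131 of 200 changed genes in the day 6 against day 1 comparison of identity-rich members (8453 genes, 7 unchanged genes called), 159 of 199 for late against early and 176 of 187 against neutrophils. The simulation set a dispersion of 0.05 for every gene and changed only genes above a count limit. The spread of the real libraries was not matched, so these rates need not hold for them. Filters, the test, member limits and left-out libraries were varied, and the effects are given in the closing section. Some genes that met these rules are not reported here.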

Additional observations from a re-analysis of the deposited data

Results flagged for a closer look

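The late minus early member share was -4.81 percentage points within the single-index pair (day 3 minus day 1 replicate 1) and 0.187 points within the dual-index pair (day 6 minus day 1 replicate 2). The pairs moved in opposite directions, and this difference was not tested, since each pair holds 1 library a group. The normal stroma library, which no comparison used, held 65 members by the same rule.

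A test of the difference itself set the identity-rich members against other kept cells at day 6 over day 1. A negative difference means that the members rose less, or fell more, than other kept cells. By edgeR the difference was -4.20 on the log2 scale for Sparc, -3.98 for Mmp9 and -3.66 for Ciita. It was 2.40 for Mmp14, 2.49 for Timp1 and 4.49 for Spp1.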

How the results depend on the processing

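With late against early over all members, edgeR called 13 genes. The count was 36 with DESeq2, 210 without a filter on low counts, 40 with the index structure as a block and 4 when at least 5 selecting UMIs were required. It was 53 in identity-rich members and 193 in identity-rich members without day 3. Leaving out 1 library at a time gave 33 (day 1 replicate 2) to 580 (day 3), with 44 without day 1 replicate 1 and 313 without day 6. A slope per day gave 17 and leaving out the deepest 10% of cells 12. Against neutrophils the count was 432. It became 793 without a filter, 666 without the deepest 10% of cells, 733 between identity-rich cells and 804 between identity-rich cells without day 3. Leaving out 1 library gave 172 (day 1 replicate 2) to 593 (day 6), with 285 without day 1 replicate 1. The share difference stayed negative under the alternatives run, between -0.110 and -4.42 points. The late minus early share of members with a Ccr2 UMI was -17.9 points thinned and -32.9 points unthinned, and with an Il1rn UMI -3.19 points thinned and 7.76 points unthinned. The cause of these shifts was not tested. Of the named genes' alternatives 142 kept their side of the threshold, 75 crossed it upward, 18 crossed it downward, and none changed sign. No paired analysis was possible because early and late libraries share only 1 replicate number, so the numbers could not serve as a block. The index structure, which matches libraries by their format and not by their source, was the 1 block that could be fitted. Depth limits single genes in identity-rich members to about 18.5, 5.53 and 5.47 CPM (3 counts) in day 1 replicate 1, day 1 replicate 2 and day 6, for counting error only.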

Other observations

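Genes outside the fixed lists, chosen after their values were seen, also differed between days in the identity-rich members. Cxcl13, a chemokine that attracts B cells, had no UMI at day 1 and was at 182 CPM at day 6, in 7 of 103 cells, and at 10.7, 0.828 and 2.31 CPM in other kept cells. In the identity-rich members of normal stroma it was at 1086 CPM. Il22ra2, which encodes a soluble inhibitor of interleukin-22, had no UMI at day 1, was at 189.7 CPM at day 6 in 4 cells, and at 512 CPM in stroma. Both were in the macrophage-like cluster 2, at 319.6 and 354 CPM at day 6. The enteroendocrine gene Gcg was at 12.3, 1.84 and 310.0 CPM in the members, the last in 8 cells, against 59.5 CPM in other kept cells of day 6. Cluster 4 held 95.9% of the 170 Gcg UMIs of day 6 identity-rich members.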
